A study of Homo sapiens with 4 samples.

Results

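The tubulin genes of the count table, and 1 clone-named row that stands beside TUBA1B in it, were described in C4-2 cells with and without an siRNA against EZH2. They comprise 10 of the table's 59385 rows: the alpha-tubulin genes TUBA1B, TUBA1A, TUBA1C and TUBA4A, the beta-tubulin genes TUBB, TUBB2A, TUBB4B and TUBB6, the gamma-tubulin gene TUBG1, and the row RP11-386G11.10. They were chosen by name, but with results known: TUBA1B was among the rows with the lowest adjusted p of the siEZH2 and siCTRL comparison, and RP11-386G11.10 had drawn notice for its counts. Values of that comparison are therefore given for these rows as a description. Where calls among them are counted, the share over all rows stands beside the count and nothing is read from it. C4-2 is a prostate cancer line derived from LNCaP, labelled as an epithelial cell, and it was grown in serum-containing medium. Total RNA was sequenced from cells labelled siEZH2 (2 libraries) and from cells labelled siCTRL, a control siRNA (2 libraries). EZH2 is the histone H3 methyltransferase of a Polycomb repressive complex, which keeps genes silent. The labels give no time after transfection and no siRNA sequence, and do not say whether replicates were separate cultures. A p-value therefore sets the group difference only against the spread between these libraries, and that spread may be technical.

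Alpha- and beta-tubulin pair into dimers that polymerise into microtubules, the filaments of the mitotic spindle and of intracellular transport. Gamma-tubulin sits in a ring complex from which microtubules grow. Cells adjust tubulin mRNA to the amount of free dimer: when dimers are in excess, the factor TTC5 recognises the first residues of a nascent alpha- or beta-tubulin chain on the ribosome and the mRNA is degraded. Several genes encode nearly the same protein, so that a short read may match more than 1 of them.

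The first 45 coding bases of TUBA4A, the 4 beta-tubulin genes and TUBG1 are shown. Those of alpha- and beta-tubulin encode the start that this surveillance reads, and the sequences show how the genes printed here differ there. They were taken from GENCODE release 29 transcripts (GRCh38), 5′ to 3′ on the coding strand, and capitals mark the first 12 bases. TUBB and TUBB4B share the same capitals, while those of the other genes shown differ in bases. Among the 4 beta-tubulin genes the capitals nevertheless encode the same residues.
TUBA4A: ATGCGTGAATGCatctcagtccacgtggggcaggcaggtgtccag
TUBB: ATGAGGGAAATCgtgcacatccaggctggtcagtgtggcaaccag
TUBB2A: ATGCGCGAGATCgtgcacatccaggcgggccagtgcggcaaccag
TUBB4B: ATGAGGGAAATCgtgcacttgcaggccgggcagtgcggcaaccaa
TUBB6: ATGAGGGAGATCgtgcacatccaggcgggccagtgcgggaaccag
TUBG1: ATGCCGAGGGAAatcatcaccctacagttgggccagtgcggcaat

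Over the whole coding sequence TUBA1B was 97.2% identical to TUBA1A and 96.8% identical to TUBA1C, against 85.7% for TUBA4A. Of all windows of 100 coding bases, 45.3% of those in TUBA1B also occurred in a transcript of another gene, as did 26.5% in TUBA1A, 26.8% in TUBA1C and 68.2% in TUBB2A. The last is shared mostly with TUBB2B. For TUBB6 the share was 0%, for TUBA4A 3.05%, for TUBB4B 3.56%, for TUBB 10.6% and for TUBG1 18.0%. Of windows of 50 bases, 75.7% were shared in TUBA1B, 58.5% in TUBA1A, 57.1% in TUBA1C and 78.7% in TUBB2A. For TUBG1 the share was then 35.8%, for TUBB 33.5%, for TUBB4B 12.2%, for TUBA4A 8.57% and for TUBB6 1.55%. No source used here gives the read length or the treatment of reads that match several genes. Counts under TUBA1B, TUBA1A, TUBA1C and TUBB2A are therefore uncertain between similar genes, and with short reads so are those under TUBB and TUBG1.

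Total counts were 6362561 and 6162123 in the siEZH2 libraries and 6867542 and 6818482 in the siCTRL libraries. Counts under EZH2 itself were 60 and 131 in the siEZH2 libraries, against 39 and 59 in the siCTRL libraries, at log2 fold change 0.51, so the targeted gene's row was not lower in the libraries labelled siEZH2 and the labels could not be checked from it. Libraries are therefore called by their labels, and every direction is that of the libraries labelled siEZH2 relative to those labelled siCTRL. The strand setting behind the table is unknown here, so whether the rows of EZH2 and of the markers hold reads from their own strand was not tested. Each of 7 prostate luminal markers, such as KLK3 and KRT8, had at least 124 counts in every library. Their sums were 22956 and 12036 in the siEZH2 libraries and 22335 and 21999 in the siCTRL libraries. Most of this was KRT8, with 20476 and 10048 counts in siEZH2 and 19289 and 18784 in siCTRL. The log2 fold changes of the luminal markers ran from -1.54 to -0.60. Markers of other cell types (PTPRC, COL1A1, COL3A1, VIM, PECAM1, KRT5, TP63) had between 5 and 71 counts, with none of the 7 at 0, and summed to 338 and 342 in the siEZH2 libraries and 107 and 221 in the siCTRL libraries. The log2 fold changes of these markers ran from 0.13 to 1.77. Among all tested rows, those with a mean of 20 to 50 counts had a median of 0.49 and those of 200 to 1000 one of -0.75. Whether the markers differ beyond that was not tested, nor was the part of other cell types in the tubulin values. In bulk RNA, fewer cells with a transcript and less of it per cell cannot be told apart.

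TUBA1B (GRCh38 chr12:49127782-49131397, minus strand), the main alpha-tubulin gene of dividing cells, had 295 and 265 counts in the siEZH2 libraries, against 1023 and 1052 in the siCTRL libraries. Both siEZH2 libraries were low and the groups did not overlap. Normalised to scaled library sizes the levels were 37.5 ± 6.63 CPM in siEZH2 and 189 ± 33.9 CPM in siCTRL cells (SD, n = 2 each). The log2 ratio of the groups was -2.33 ± 0.42 (SE). The scaling factors, 1.12 and 1.34 for siEZH2 and 0.704 and 0.945 for siCTRL, add to this difference and to the spread. TUBA1A (chr12:49184796-49189324, minus strand), the alpha-tubulin gene known for its role in neurons, had 30 and 79 counts in the siEZH2 libraries, against 97 and 984 in the siCTRL libraries. Its high value came from siCTRL replicate 2 alone. Its log2 fold change was -3.63 with all libraries and -1.60 without that one. TUBA1C (chr12:49188736-49274603, plus strand), another gene of the same cluster, had 191 and 289 counts in the siEZH2 libraries, against 349 and 425 in the siCTRL libraries. The counts did not overlap between groups, and the log2 fold change, with its SE, was -1.14 ± 0.40. TUBA4A (chr2:219249711-219278170, minus strand), an alpha-tubulin gene abundant in platelets, had 102 and 192 counts in the siEZH2 libraries, against 178 and 173 in the siCTRL libraries. Here the counts overlapped between groups, because siEZH2 replicate 2 stood above both siCTRL libraries. Its log2 fold change was -0.74.

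**Figure D1:**
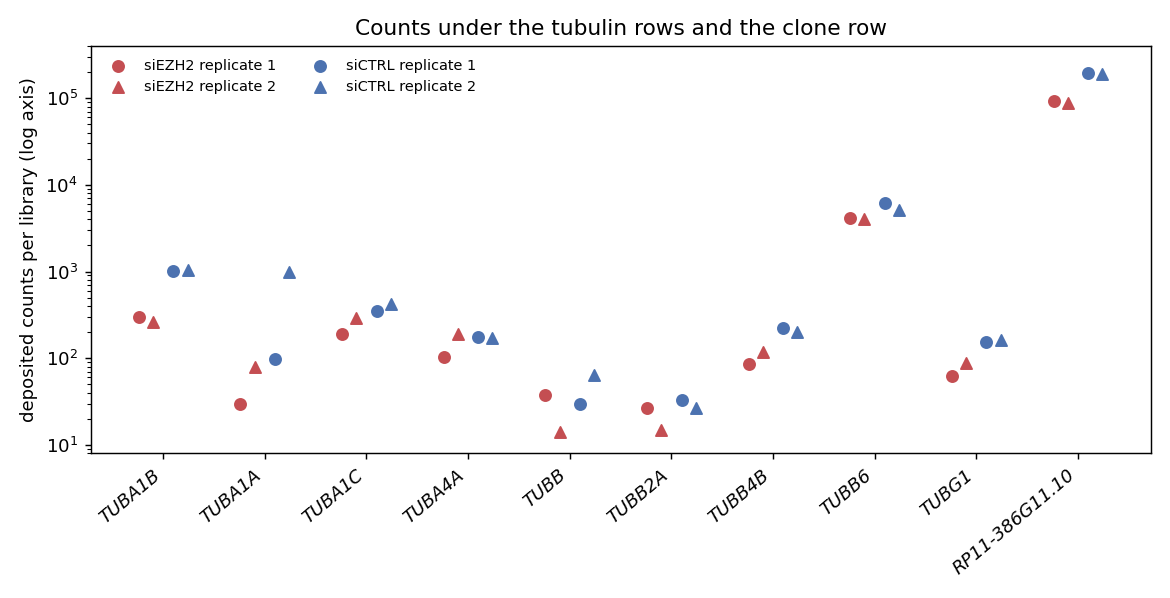
Deposited counts (log axis) under the 9 tubulin rows and RP11-386G11.10 in each library, with siEZH2 in red left of siCTRL in blue, circles for replicate 1 and triangles for replicate 2. TUBA1B separates into 265 to 295 and 1023 to 1052 counts, TUBA1A is high in 1 siCTRL library only, and RP11-386G11.10 lies far above every tubulin row.

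RP11-386G11.10 held far more counts than any tubulin gene. It had 92279 and 87379 counts in the siEZH2 libraries, against 194025 and 190285 in the siCTRL libraries, and by its mean it ranked 3 among all rows. It took 1.45% and 1.42% of all counts in the siEZH2 libraries, against 2.83% and 2.79% in the siCTRL libraries. The exact 95% intervals, which cover counting error only, were 1.44% to 1.46% and 1.41% to 1.43% in siEZH2, against 2.81% to 2.84% and 2.78% to 2.80% in siCTRL. TUBA1B took 0.00464% and 0.00430% in the siEZH2 libraries and 0.0149% and 0.0154% in the siCTRL libraries. Normalised levels of the clone row were 11995 ± 1682 CPM in siEZH2 and 35127 ± 7448 CPM in siCTRL cells (SD, n = 2 each), and the log2 ratio of the groups was -1.55 ± 0.61 (SE). The other rows whose names share its clone prefix, RP11-386G11.3, RP11-386G11.8, RP11-386G11.11 and RP11-386G11.12, had between 0 and 54 counts in any library.

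Whether this row stands for TUBA1B transcripts counted on the opposite strand was examined from its name, its place and its counts. The prefix of the name is that of a genomic clone and says nothing of strand, and no source used here pairs the name with a gene identifier. In the table the row stands between TUBA1B and TUBA1A. Rows follow the genome there: among 37626 pairs of neighbouring rows that could be placed by symbol on 1 chromosome, 99.1% were in order of position. Between the starts of TUBA1B and TUBA1A, release 29 holds only an antisense gene (chr12:49127782-49147869, plus strand) and a miscellaneous RNA of 95 bases, neither with a row of its own name in the table. That antisense gene shares 1309 exonic bases with TUBA1B, 1182 of them within the principal TUBA1B transcript. Its length in release 29 is 1632 bases, however, and that of the clone row is 4590, so the match rests on table neighbours and not on length.

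RefSeq, in contrast, annotates the antisense gene TUBA1B-AS1 at chr12:49131606-49147863 and TUBA1B at chr12:49127782-49131395, which do not overlap. The ID of the release 29 gene carries the symbol TUBA1B-AS1 in the gene name table used here. A strand swap therefore could not be settled from the name. The counts showed that the clone row held 313 and 329.7 times the counts of TUBA1B in the siEZH2 libraries and 189.7 and 181 times in the siCTRL libraries. The ratio was higher in both siEZH2 libraries, as TUBA1B was lower by more than its neighbour.

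**Figure D2:**
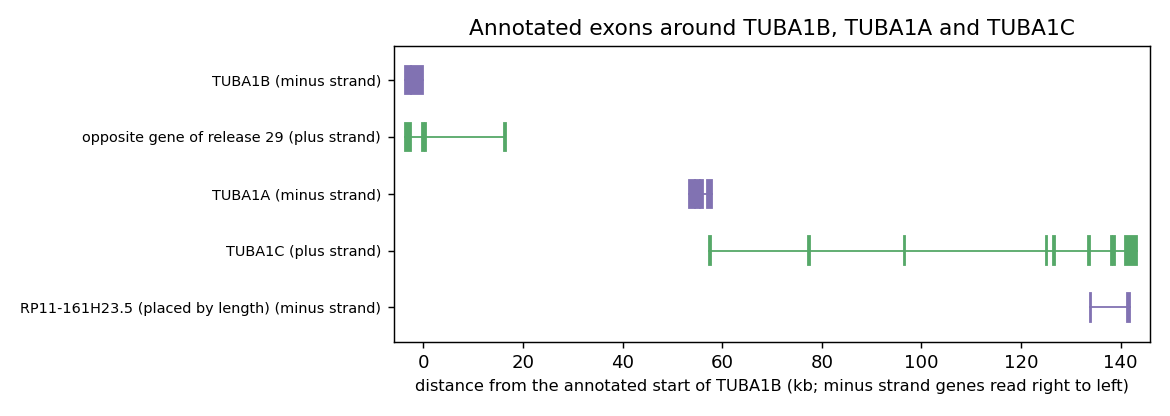
Exons annotated in GENCODE release 29 around TUBA1B, drawn by distance in kb from its start (plus strand in green, minus strand in purple, lines for introns). The opposite gene covers both ends of TUBA1B, TUBA1C starts within TUBA1A on the other strand, and the gene of the same length as RP11-161H23.5 lies inside TUBA1C.

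Most of the other tubulin genes have an annotated gene on their opposite strand. Facing TUBA1C, release 29 has an antisense gene of 680 bases (chr12:49265156-49273306, minus strand) that shares 666 bases with its exons. The table's row RP11-161H23.5 has that length and lies at that place among its neighbours, although 26 genes of the release have that length. It held 22912 and 18106 counts in the siEZH2 libraries, against 33136 and 30787 in the siCTRL libraries, a mean 83.7 times that of TUBA1C. Facing TUBB, an antisense gene of 773 bases (chr6:30723105-30723877, minus strand) shares 538 bases with it, and the row XXbac-BPG252P9.9 has that length, which 13 genes share, and that place. This row held 6879 and 7267 counts in the siEZH2 libraries, against 13477 and 11695 in the siCTRL libraries, a mean 269 times that of TUBB. FAM166A, which shares 124 bases with the end of TUBB4B, had a mean 38.2 times that of TUBB4B. RETREG3, an endoplasmic reticulum membrane gene that shares 139 bases with TUBG1, held 13.7 times the counts of TUBG1. STK16, a kinase gene that shares 627 bases with TUBA4A, held 2.68 times the counts of TUBA4A. Going the other way, TUBB6 held 22.2 times the counts of AFG3L2, a mitochondrial protease gene that it faces over 837 bases, although its principal transcript shares 0 bases with that gene. TUBA4B, which also faces TUBA4A, had fewer counts than TUBA4A, whose principal transcript shares 0 bases with TUBA4B. TUBA1A and TUBA1C face each other over 490 bases. The principal TUBA1A transcript shares 164 bases with TUBA1C, and the principal TUBA1C transcript shares 0 with TUBA1A. TUBA1C held 6.37 and 3.66 times the counts of TUBA1A in the siEZH2 libraries, and 3.60 and 0.432 times in the siCTRL libraries. For TUBB2A release 29 shows no gene on the opposite strand. As background, of 1572 noncoding rows in the whole table that face exactly 1 coding row, with a mean of at least 100 counts in either, 63.4% held more counts than the coding row and 31.2% held over 10 times as many. An excess was thus common among such noncoding rows. This background does not cover the coding rows FAM166A, RETREG3, STK16, AFG3L2 and TUBA4B. The values below and above are counts under a row, not levels of its mRNA.

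**Figure D3:**
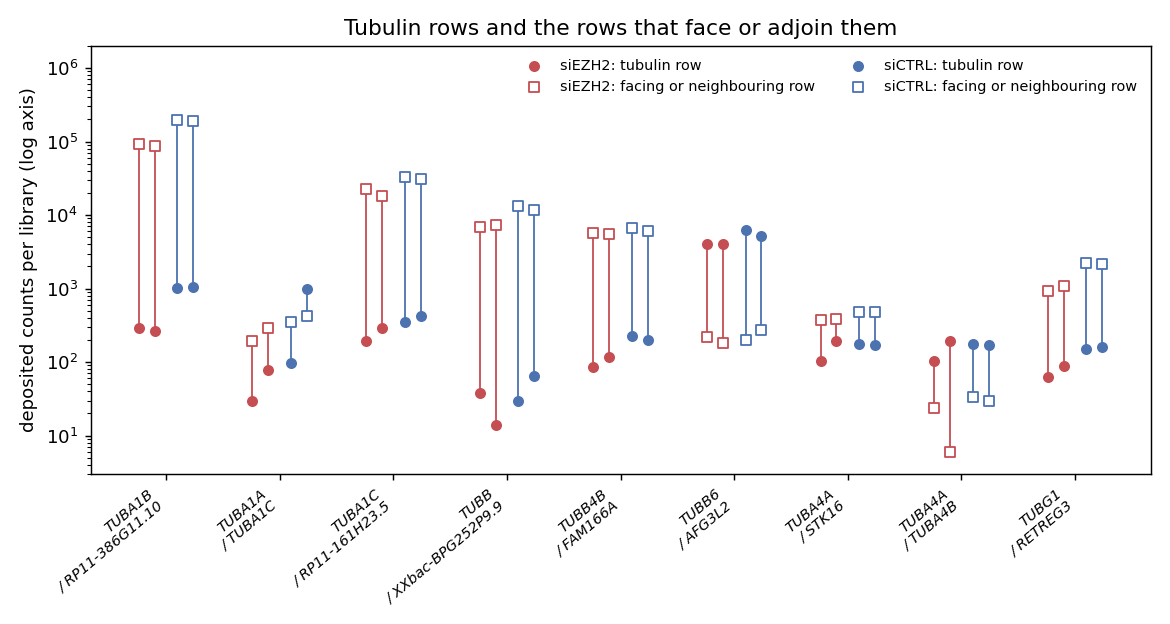
Deposited counts (log axis) under each tubulin row (filled circles) joined to the facing or, for RP11-386G11.10, neighbouring row (open squares) in the same library, siEZH2 in red left of siCTRL in blue. The joined row is the higher in all 4 libraries for TUBA1B, TUBA1C with RP11-161H23.5, TUBB, TUBB4B, TUBG1 and TUBA4A with STK16, and the lower for TUBB6 and for TUBA4A with TUBA4B.

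Among beta-tubulins TUBB6 had the most counts. TUBB6 (chr18:12307669-12344320, plus strand) had 4096 and 4052 counts in the siEZH2 libraries, against 6221 and 5125 in the siCTRL libraries. The groups did not overlap, and the log2 fold change, with its SE, was -0.95 ± 0.45. TUBB4B (chr9:137241213-137243707, plus strand), a widely expressed beta-tubulin gene, had 85 and 119 counts in the siEZH2 libraries, against 224 and 198 in the siCTRL libraries. Normalised levels were 13.4 ± 1.82 CPM in siEZH2 and 38.9 ± 11 CPM in siCTRL cells (SD, n = 2 each), and the log2 ratio of the groups was -1.53 ± 0.43 (SE). TUBB (chr6:30720201-30725426, plus strand), the main beta-tubulin gene of dividing cells, had 38 and 14 counts in the siEZH2 libraries, against 30 and 64 in the siCTRL libraries. These few counts overlapped between groups. Its log2 fold change was -1.19 (SE 0.70), with -2.32 without siEZH2 replicate 1 and -0.62 without siEZH2 replicate 2. TUBB2A (chr6:3153669-3157526, minus strand), a beta-tubulin gene of the brain, had 27 and 15 counts in the siEZH2 libraries, against 33 and 27 in the siCTRL libraries, which touch at 27. Its log2 fold change, with its SE, was -0.95 ± 0.77.

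TUBG1 (chr17:42609676-42615234, plus strand), which encodes the gamma-tubulin of the nucleating ring, had 63 and 89 counts in the siEZH2 libraries, against 153 and 161 in the siCTRL libraries. The groups did not overlap. Normalised levels were 10.0 ± 1.42 CPM in siEZH2 and 28.6 ± 4.66 CPM in siCTRL cells (SD, n = 2 each), and the log2 ratio of the groups was -1.51 ± 0.44 (SE). RETREG3, the row on its other strand, had 939 and 1080 counts in the siEZH2 libraries, against 2222 and 2141 in the siCTRL libraries, and a log2 fold change of -1.58. The ratio of RETREG3 to TUBG1 was 14.9 and 12.1 in the siEZH2 libraries and 14.5 and 13.3 in the siCTRL libraries, with overlap between groups. For TUBB4B the groups did not overlap in this ratio. FAM166A held 66.2 and 46.9 times the counts of TUBB4B in the siEZH2 libraries and 29.4 and 31.0 times in the siCTRL libraries.

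Per kb of row length, so that rows can be set against each other, the mean over the 4 libraries was highest for RP11-386G11.10, at 30717 counts per kb, followed by TUBB6 at 1237 and TUBA1B at 184. TUBA1A, TUBB4B and TUBA1C followed at 77.8, 76.8 and 70.4, then TUBA4A at 43.6, TUBG1 at 27.0, TUBB at 8.97 and TUBB2A at 8.77. The place of TUBA1A rests on siCTRL replicate 2, since its mean was 18.0 counts per kb without that library. The lowest library of RP11-386G11.10, and likewise of TUBB6, lay above the highest library of the next row, while from TUBA1B downwards the ranges over the 4 libraries overlapped between neighbours. Within each library TUBA1B lay above TUBA1A, TUBA4A above TUBG1 and TUBG1 above TUBB. Summed, the 9 tubulin genes held 4927 and 5114 counts in the siEZH2 libraries and 8308 and 8209 in the siCTRL libraries. Without TUBB6 the sums were 831 and 1062 in the siEZH2 libraries and 2087 and 3084 in the siCTRL libraries. The 67 other rows named as tubulin genes or pseudogenes held few counts. None reached a mean of 100, the highest was TUBB1 at 68.25, and together they summed to 501 and 632 counts in the siEZH2 libraries and 327 and 455 in the siCTRL libraries. The 16 of them that could be tested split into 8 with a positive and 8 with a negative log2 fold change, with a median of -0.038.

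All 10 rows passed the filter on low counts, and each had a negative log2 fold change when libraries were scaled on all tested rows, against 43.3% of tested rows, with a median of -1.35. In that scaling normalised levels were lower in both siEZH2 libraries than in both siCTRL libraries for all 10, against 22.9% of all tested rows, although the deposited counts of TUBA4A, TUBB and TUBB2A overlapped or touched. That share was 52.2% among rows with a mean of 100 to 200 counts, 74.2% among those of 200 to 1000 and 78.5% among those of 1000 or more. With edgeR's quasi-likelihood test, 0 of the 24431 tested rows were called at an adjusted p under 0.05, which is 0%, and so none of the 10. At an unadjusted p under 0.05, 7 of the 10 were lower, against 7.91% of tested rows, and 0 were higher, against 8.53%. DESeq2 called 7 of the 10 lower, against 3.7% of rows, limma-voom 5, against 1.37%, edgeR with RLE factors 1, against 0.0491%, and edgeR with a replicate block 7, against 4.42%. DESeq2 gave no adjusted p for TUBB and TUBB2A, and its 3.7% is over all 24431 rows, including rows without one. Since the contrast was known when the rows were chosen, nothing is read from these counts.

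How many rows lie below 0 depends on the scaling, and the medians of rows of like counts move with it. Rows with many counts were nearly all negative when libraries were scaled on all tested rows: 95.5% of rows with a mean of 200 to 1000 counts were negative, with a median of -0.75, and 98.3% of those with 1000 or more, with a median of -0.71. Rows of 100 to 200 counts had a median of -0.52 and rows of 20 to 50 counts one of 0.49. Each of the 10 rows lay below the median of its own class. Among the 1928 rows with 200 to 1000 counts none was more negative than TUBA1A and 1, TUBA1A itself, was more negative than TUBA1B. The value of TUBA1A and its class rest on siCTRL replicate 2: without that library its mean was 68.7 counts and its log2 fold change -1.60, beside -2.58 for TUBA1B. Of the 959 rows with 1000 or more, 17 were more negative than RP11-386G11.10 and 212 more negative than TUBB6. In the class of 100 to 200 counts, 3.51% of rows were more negative than TUBB4B, 3.81% than TUBG1 and 34.5% than TUBA4A. When the scaling used well-counted rows only, those reaching 200 counts in 2 libraries, it moved the median over all tested rows by 0.66, to 0.88. Under it 9 of the 10 rows stayed negative, TUBA4A stood at 0.018 and the median of the 10 was -0.70. Of all tested rows 19.6% were below 0, a share over rows of all counts. The class medians were then 1.16 for 20 to 50 counts and 0.20 for 100 to 200. For 200 to 1000 counts the median was -0.022 and for 1000 or more 0.0029. TUBA1B then stood at -1.63, RP11-386G11.10 at -0.83, TUBB4B and TUBG1 at -0.78, TUBA1C at -0.42 and TUBB6 at -0.21. Lower values in siEZH2 without overlap remained for 5 of the 10 (TUBA1B, RP11-386G11.10, TUBB4B, TUBB6 and TUBG1), against 6.76% of tested rows. This share, too, is over rows of all counts.

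**Figure D4:**
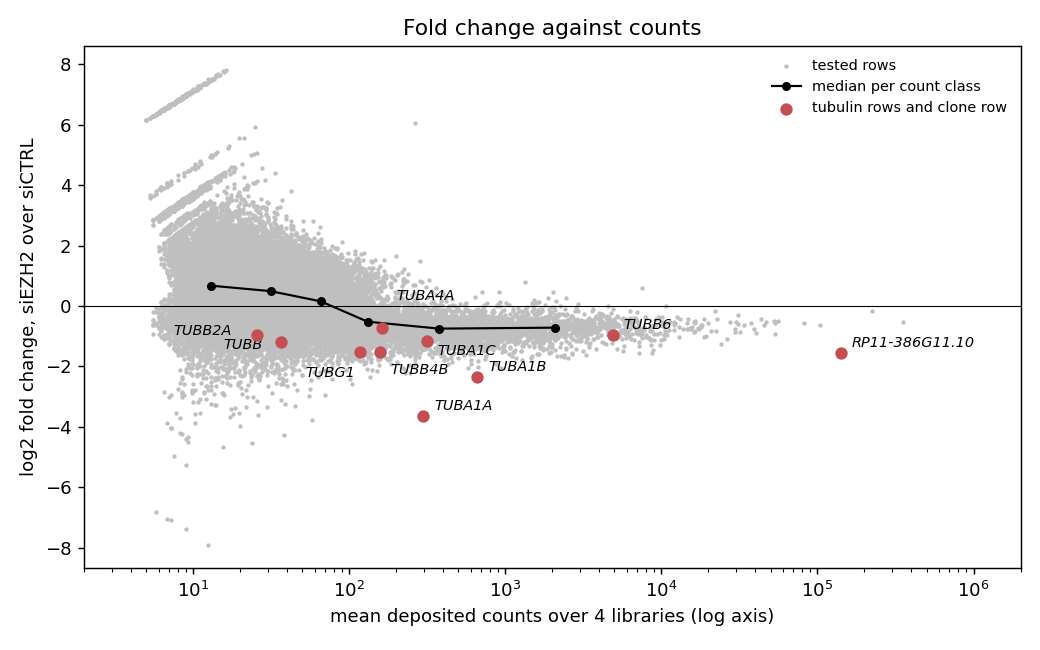
Log2 fold change of siEZH2 over siCTRL, scaled on all tested rows, against the mean deposited count (log axis) for every tested row in grey, with the median of each count class in black and the 10 rows in red. Class medians are positive below 100 counts and negative above, and all 10 rows lie below the median of their class, TUBA1A (high in siCTRL replicate 2 alone) and TUBA1B farthest among rows of 200 to 1000 counts.

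**Figure D5:**
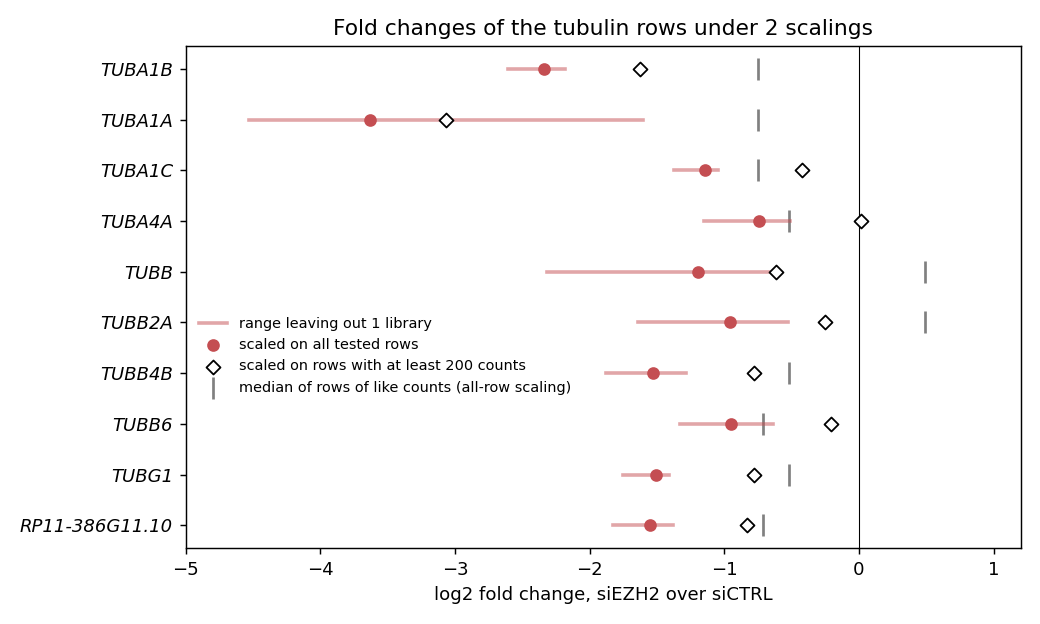
Log2 fold change of siEZH2 over siCTRL for each row scaled on all tested rows (red circles), with the range when 1 library is left out (red lines), scaled on rows with at least 200 counts (open diamonds) and the median of rows of like counts (grey ticks). TUBA1A has the widest range, from -4.53 to -1.60, and the diamond of TUBA4A lies at 0.018.

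The rows on the other strand are given here beside the tubulin rows. All 7 that are not tubulin members of the set (RP11-161H23.5, XXbac-BPG252P9.9, FAM166A, AFG3L2, STK16, TUBA4B and RETREG3) had a negative log2 fold change, with a median of -1.09. Of all tested rows 43.3% were negative. The share was 30.7% at 20 to 50 counts, 95.5% at 200 to 1000 and 98.3% at 1000 or more. FAM166A and AFG3L2 lay above the median of rows of like counts, by 0.072 and 0.087. The others lay below it, STK16 by 0.049. Under the other scaling FAM166A and AFG3L2 turned positive, at 0.083 and 0.0076. RP11-161H23.5 stood at -1.09 beside TUBA1C at -1.14, XXbac-BPG252P9.9 at -1.30 beside TUBB at -1.19, and RETREG3 at -1.58 beside TUBG1 at -1.51. STK16 stood at -0.80 and TUBA4B at -1.47 beside TUBA4A at -0.74. FAM166A stood at -0.64 beside TUBB4B at -1.53, AFG3L2 at -0.66 beside TUBB6 at -0.95, and the neighbouring row RP11-386G11.10 at -1.55 beside TUBA1B at -2.33. The difference within a pair was not tested.

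Genes that act on tubulin were taken from lists of 94 genes in 9 groups, which include the tubulins, and 83 of them could be tested. With edgeR's quasi-likelihood test none was called at an adjusted p under 0.05 over all rows, while at an unadjusted p under 0.05 there was 1 higher and 14 lower. Over all tested rows these shares were 8.53% higher and 7.91% lower. DESeq2 called 10 of them lower, against 3.7% of rows, and limma-voom 5, against 1.37%. The 3.7% again includes rows to which DESeq2 gave no adjusted p. The tubulin genes described above make up 6 of the 14 at an unadjusted p, 6 of the 10 with DESeq2 and 4 of the 5 with limma-voom, and since they were chosen with this contrast known nothing is read from these counts. The median over the 83 was -0.46, or 0.27 when scaled the other way, beside medians of 0.22 and 0.88 over all tested rows.

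Of the chaperonin CCT, which folds tubulin, and prefoldin, which hands it over, 12 of 14 genes were tested, with 10 negative, 2 positive and a median of -0.63 (0.030 under the other scaling). TCP1, a CCT subunit whose row faces ACAT2, had 949 and 934 counts in the siEZH2 libraries, against 1677 and 1303 in the siCTRL libraries. Its log2 fold change was -1.14 (edgeR adjusted p = 0.224), or -0.39 under the other scaling. The prefoldin subunit PFDN6 had -0.96 (-0.25 under the other scaling). The folding cofactors that assemble the dimer had 3 positive and 2 negative genes of 5 tested, with a median of 0.10 (0.85 when scaled the other way). TBCB had -0.46, which was 0.28 under the other scaling, and TBCD had 0.25, which was 0.91.

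The gamma-tubulin ring complex had 6 negative and 3 positive genes of 9 tested, and a median of -0.32, or 0.29 when scaled the other way. TUBGCP2, a core subunit whose row faces ZNF511, had 3847 and 4453 counts in the siEZH2 libraries, against 6170 and 6325 in the siCTRL libraries. Its log2 fold change was -1.05 (edgeR adjusted p = 0.266), or -0.32 under the other scaling. TUBGCP4, facing TP53BP1, had -0.73, and 0.0065 under the other scaling. Genes of tubulin mRNA autoregulation had 3 negative and 1 positive of 4 tested, and a median of -0.52, or 0.17 when scaled the other way. CNOT1, the scaffold of the deadenylase complex, had -0.68 (0.067 under the other scaling). Its row, with a mean of 306.5 counts, faces SETD6, with a mean of 3322.75, over 1086 bases. SCAPER, which links TTC5 to that complex, had 0.74 (1.39 under the other scaling).

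Enzymes that modify tubulin had 7 positive and 7 negative genes of 14 tested and a median of 0.13, against 12 positive, 2 negative and a median of 0.85 when scaled the other way. VASH1, which removes the final tyrosine of alpha-tubulin, had 150 and 346 counts in the siEZH2 libraries, against 469 and 458 in the siCTRL libraries. Its log2 fold change was -1.40 (edgeR adjusted p = 0.192), or -0.63 under the other scaling. AGBL5, a deglutamylase, had -0.59 and, under the other scaling, 0.11. Its row had a mean of 780.5 counts, beside 962.5 for RP11-503P10.1, a row placed opposite it. Microtubule-associated and severing proteins had 11 positive and 8 negative genes of 19 tested and a median of 0.15 (0.81 when scaled the other way). MAP4 stood at -0.19 (0.55 under the other scaling) and MAP7 at -1.15 (-0.45 under the other scaling). The alpha-tubulin list had 8 of 8 tested genes negative with a median of -1.31 (-0.62 when scaled the other way), the beta-tubulin list 5 of 8 with a median of -0.79 (-0.048 when scaled the other way, with 4 of 8 negative), and the gamma, delta and epsilon list 3 of 4 with a median of -0.59 (0.054 when scaled the other way). TUBE1, epsilon-tubulin, had -0.66 and, under the other scaling, 0.040.

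Among rows averaging 100 counts or more, those with the pattern closest to TUBA1B over the 4 libraries, by Euclidean distance of centred log2 CPM, were ACBD3 (distance 0.11), LMLN-AS1 (0.27), CSRP3-AS1 (0.28), DIAPH3-AS1 (0.28) and DIS3L (0.48). ACBD3, for example, had 63 and 50 counts in the siEZH2 libraries, against 211 and 217 in the siCTRL libraries. For RP11-386G11.10 they were TNFSF13 (0.05), ERCC1 (0.06), PRC1-AS1 (0.07), C1orf56 (0.09) and RP11-295I5.4 (0.10). PRC1-AS1 had 3839 and 3559 counts in the siEZH2 libraries, against 7715 and 7426 in the siCTRL libraries. The 4 libraries make these distances a description only.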

How the data were processed

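Per the labels' protocols, total RNA of C4-2 cells entered a stranded total RNA kit. Named without role in the submitters' processing notes are featureCounts 2.0.3, STAR 2.7.10b, limma, edgeR and the build GRCh38. Strand setting and annotation release: not given in the sources used here. Raw counts, whole numbers for each row and library, were deposited with row lengths, and columns were matched to samples by title.

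Rows were placed on GENCODE release 29 by symbol (37665) or, failing that, by equal length between placed table neighbours (16879). Facing rows share exonic bases on opposite strands. The test was edgeR 4.0.16 under R 4.3.3 (filterByExpr, TMM, glmQLFit, glmQLFTest, Benjamini-Hochberg over 24431 kept rows). Library-size factors were 1.12 and 1.34 for siEZH2 and 0.704 and 0.945 for siCTRL. CPM were computed on scaled library sizes, and a standard error is the fold change over the square root of F. On simulated counts the procedure recovered 0% of 200 rows changed 2-fold, 25% at 4-fold and 62% at 8-fold. With 2 against 2 libraries the smallest exact permutation p is 0.333, so none is given. Alternatives used DESeq2 1.42.0 and limma 3.58.1. Sequences were compared with Biopython 1.88. Named were the 10 rows, EZH2, facing rows, rows of the clone prefix, for each list its called genes or otherwise the 2 tested genes with most counts, and for TUBA1B and RP11-386G11.10 the 5 nearest rows. Members and lists were chosen with earlier results of these data known. FAM166A, RETREG3, STK16 and AFG3L2 follow from the rule on facing rows, while TUBB1 was named after its values were seen. One luminal marker and the sequences of TUBA1B, TUBA1A and TUBA1C are not reported here.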

Additional observations from a re-analysis of the deposited data

How the results depend on the processing

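All 10 rows kept a negative log2 fold change without any 1 library. Their median was -1.35, from -1.56 to -1.33 when 1 library was left out, and -0.70 when scaled on rows with at least 200 counts, where TUBA4A turned to 0.018, FAM166A to 0.083 and AFG3L2 to 0.0076. EZH2 ranged from -0.043 without siEZH2 replicate 2 to 0.81 without siEZH2 replicate 1. Counts of called rows depended on the method, where the cause was not tested. Against 0 higher and 0 lower with edgeR, RLE factors gave 1 and 12, DESeq2 8 and 905, limma-voom 11 and 334, and no low-count filter 12 and 68. Leaving out 1 library gave 0 to 61 higher and 1 to 173 lower, with most without siEZH2 replicate 1. Among genes of the lists, 1 was called lower with RLE factors, 10 with DESeq2, 5 with limma-voom, 2 with no low-count filter and 0 to 2 with 1 library left out. The labels do not say that a replicate number marks a shared batch or culture, and deviations of same-numbered libraries correlated at 0.050 across rows, or 0.083 across rows averaging 100 counts or more. With the replicate block 248 rows were called higher and 1079 lower, of which 1 higher and 10 lower were in the lists. Ratios of facing to tubulin rows per kb were 548 for RP11-161H23.5, 1418 for XXbac-BPG252P9.9, 0.0264 for AFG3L2 over TUBB6, 0.316 for TUBA4B over TUBA4A and 11.5 for RETREG3. TUBA1C held 0.828 to 4.02 times the counts of TUBA1A with 1 library left out, the highest without siCTRL replicate 2. With at least 50 counts in 2 libraries TUBB and TUBB2A gave no value. edgeR's test recovered 0% of simulated 2-fold changes at this depth and spread.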
